A study of Mus musculus with 4 samples.

Results

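The genes studied here belong to the heat shock factor and HSP90 co-chaperone system and were followed across cell types of the mouse lymph node. They are Hsf1, Hsf2, Stip1, St13, Ahsa1, Ahsa2, Chordc1, Cacybp, Fkbp4 and Bag3. These 10 of the 32285 genes in the count tables were chosen by name for their function, with earlier results of these data known. HSF1 is the transcription factor that switches on heat shock genes when unfolded proteins draw the chaperones away from it. HSP90 folds late-stage clients such as kinases and steroid receptors in a cycle driven by ATP. Co-chaperones bind HSP90 and set the pace of that cycle, deliver clients from HSP70, or act on the client itself, and many of their genes are HSF1 targets.

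The data come from 4 droplet single-cell RNA libraries of lymph node cells from wild-type C57BL/6 mice, 2 labelled Control and 2 labelled EV. The study describes the 2 libraries of a group as biological replicates. The EV mice received 100 µg of extracellular vesicles of induced pluripotent stem cells (iPSC EVs) under the skin, and the study's methods state that Control mice received PBS and that draining nodes were taken on day 5. The labels instead give no treatment for Control and 24 h for every library. The sex and age of these mice and their number per library are not given in the sources used here, and no date or batch is labelled, so a day of processing that differed between the groups cannot be told apart from EV.

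Each count is a unique molecular identifier (UMI), which stands for 1 captured mRNA molecule. The 4 libraries hold 50749656 to 70418672 UMIs in 8297 to 9000 barcodes. Barcodes had to show 200 to 5000 genes, no more than 20000 UMIs and less than 10% mitochondrial UMIs, and 32725 of 34323 did. They were gated by single marker genes into B cells (Cd79a present, Cd3e absent, 14686 cells), CD4 T cells (Cd3e and Cd4 present, Cd8a and Cd79a absent, 5197 cells), CD8 T cells (Cd3e and Cd8a present, Cd4 and Cd79a absent, 5901 cells) and macrophages (at least 2 UMIs of C1qa and C1qb, Cd3e absent, 280 cells). Raw UMIs were summed per library and gate, so that n is 2 libraries against 2, and values are given as CPM, the UMI count scaled to a library total of 1000000, with TMM factors, which align the libraries on the bulk of their genes. A gene was called at an adjusted p under 0.05 in edgeR's quasi-likelihood test with Benjamini-Hochberg adjustment over all genes tested in that gate.

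The gates were checked against markers that had not been used to draw them. Summed B cell markers (Cd79b, Ms4a1, Cd22, Pax5 and Bank1) reached 6526 to 8013 CPM in the B cell gate and 13.4 to 32.5 CPM in the T cell gates. Summed T cell markers (Cd3d, Cd3g, Trac, Trbc2, Cd5 and Cd2) reached 3612 to 4359 CPM in the T cell gates and 176 to 243 CPM in the B cell gate. In the B cell gate the T cell marker sum was lower in EV (218 and 243 CPM in Control, 176 and 179 CPM in EV, lowest first). In Control most of this sum was Cd2, at 164 CPM of the 218 and 172 CPM of the 243. The macrophage marker sum of the B cell gate was higher in EV, at 44.2 to 45.3 CPM in Control and 62.6 to 87.8 CPM in EV. So was its neutrophil marker sum, at 0.0746 to 0.219 CPM and 2.85 to 6.59 CPM. The CD4 T cell gate carried more B cell markers in EV, at 13.4 to 17.1 CPM in Control and 19.9 to 20.1 CPM in EV. Its neutrophil marker sum was 0 to 0.225 CPM in Control, 28.1 CPM in EV library 1 and 0.597 CPM in EV library 2. The sum of Cd40lg and the gate gene Cd4 was lower in EV there, at 470 to 476 CPM in Control and 388 to 453 CPM in EV. In the CD8 T cell gate its marker Cd8b1 was lower in EV, at 924 to 933 CPM in Control and 830 to 906 CPM in EV. The neutrophil marker sum of that gate was higher in EV, at 0.0597 to 0.153 CPM and 0.540 to 1.25 CPM. Its dendritic cell marker sum was 167 to 178 CPM in Control and 179 to 183 CPM in EV, while its T cell and B cell marker sums overlapped. The part of these sums in the member values was not tested beyond the stricter gates. The macrophage gate carried 9789 to 19789 CPM of macrophage markers, but also 1593 to 3530 CPM of B cell markers. The gates for B cells and macrophages do not exclude each other. Counted in both were 5 and 10 cells in Control and 20 and 16 cells in EV. The B cell marker sum of the macrophage gate was higher in both EV libraries than in both Control libraries, and its macrophage marker sum was lower. The part of these differences in the macrophage values below was not tested. Pairs of libraries shared 12 to 26 barcodes. EV cells were deeper in every gate, with median UMIs in CD4 T cells of 6046 and 6984 in Control and 8339 and 7551 in EV. Median mitochondrial shares were 3.05% and 2.94% in Control and 3.26% and 3.59% in EV libraries. The transcript Gm42418, which collects reads of ribosomal RNA, was lower in EV in every gate, and in CD4 T cells it stood at 8449 and 9977 CPM in Control against 5572 and 714 CPM in EV, so that EV library 2 stood apart. The part of these differences in the results was not tested beyond alternative fits. These left out each library in turn, used library sizes without Gm42418, or thinned cells to equal depth.

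HSF1 binds heat shock elements, which are repeats of the unit NGAAN in alternating orientation. RefSeq promoter windows of GRCm38.p6 (250 bases before to 50 from the transcription start) were given for 8 of the 10 genes, and Hsf1 and St13 have none in the table. On either strand, 2 adjoining units read GAANNTTC or TTCNNGAA, and 3 units read GAANNTTCNNGAA or TTCNNGAANNTTC, so that a 3-unit match contains 2-unit matches. Of all 32851 windows, 15.1% hold a 2-unit and 0.603% a 3-unit match. Chordc1, Fkbp4 and Bag3 hold a 2-unit match, and Chordc1 alone among the 8 holds 3 units. Stretches are shown for the co-chaperone with the densest run of units, Chordc1, and for Fkbp4, which has a single match. Both were called in EV. The last stretch is of Bag3, a heat shock gene with a match inside the gene, which was not called. Capitals mark the GAA and TTC letters of the matches, and each stretch has 30 bases.
Chordc1, chr9:18292260-18292289, plus strand: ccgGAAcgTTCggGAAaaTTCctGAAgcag
Fkbp4, chr6:128438789-128438818, minus strand: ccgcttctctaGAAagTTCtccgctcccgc
Bag3, chr7:128523603-128523632, plus strand: ccaagttctctggatgggaccaGAAgtTTC
The Chordc1 run spans positions -4 to 18 around the RefSeq start, and a further match stands at 33 to 40. That start lies inside the Chordc1 gene of GENCODE M21. The Fkbp4 match lies at -151 to -144, upstream of the gene, and the Bag3 match at 42 to 49, inside the gene. In Stip1, Ahsa1, Ahsa2, Cacybp and Hsf2 these letters were not in the window. Of these, Stip1, Ahsa1, Ahsa2 and Cacybp were called higher in EV in the B, CD4 T and CD8 T cell gates, and Hsf2 in no gate. A match is a string of letters and not a measured binding site.

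The question of the comparison was which of these genes differ between EV and Control cells of one type. In lymphocytes the answer divided the list. A group of 6 genes, Stip1, Ahsa1, Ahsa2, Chordc1, Cacybp and Fkbp4, were called higher in EV in all 3 of the B, CD4 T and CD8 T cell gates, with ratios of the mean CPM between 1.403 and 2.03. St13 was called in both T cell gates and not in B cells. Hsf1, Hsf2 and Bag3 were called in none. No member was called lower. In B cells 6 of the 9 members tested were called higher, against 1.57% of the 13270 genes tested. In CD4 T cells it was 7 of 10, against 0.788% of 11933 genes, and in CD8 T cells 7 of 10, against 1.34% of 12284 genes. With each library left out in turn, the log2 fold changes of the 7 genes from Stip1 to St13 named above stayed above 0 in the 3 gates. They ran from 0.33 for St13 to 1.16 for Stip1, both in CD8 T cells. The median log2 fold change of the members was 0.50, 0.66 and 0.71 in B, CD4 T and CD8 T cells, where the median of all genes was within 0.01 of 0. EV and Control did not overlap, with EV higher, for 9 of 9 tested members in B cells (25.6% of all genes), 7 of 10 in CD4 T cells (24.2%) and 8 of 10 in CD8 T cells (24.4%).

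**Figure D1:**
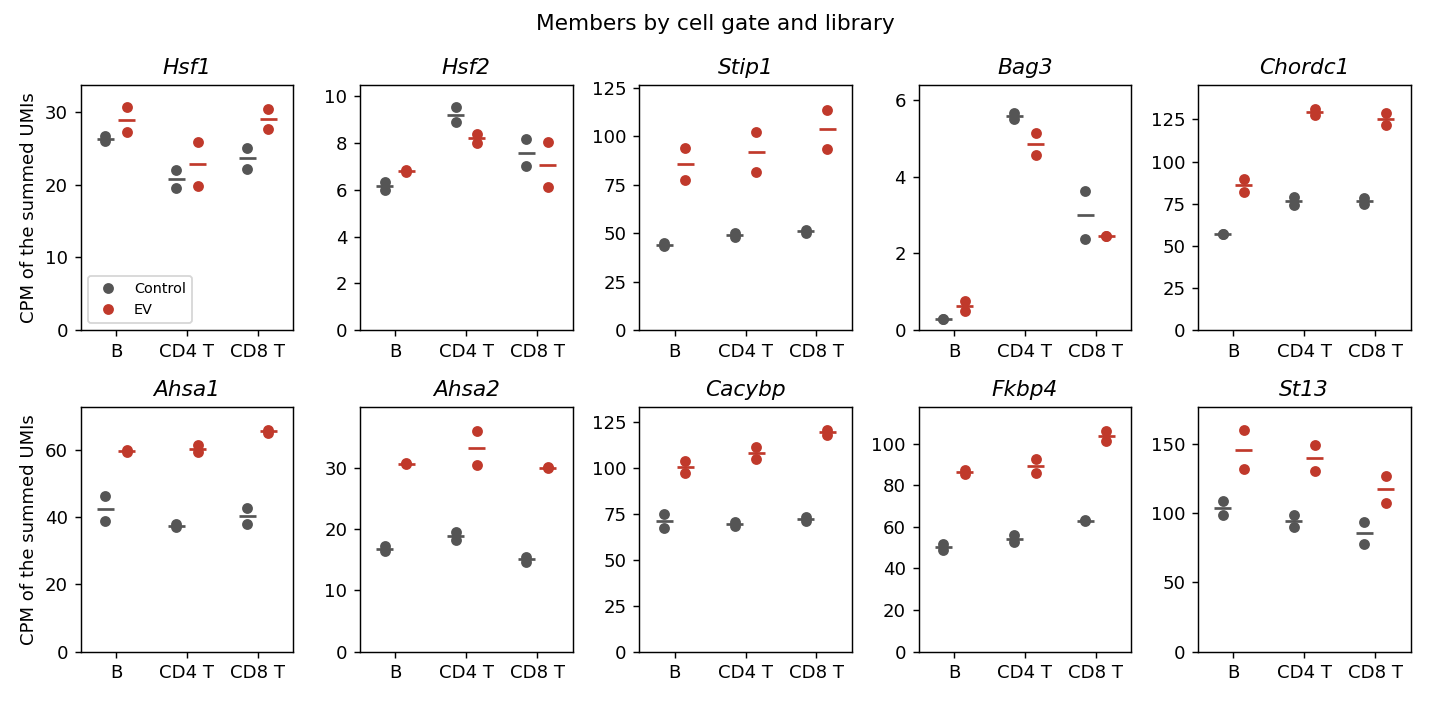
CPM of the UMIs summed per library (points) and group mean (line) for the 10 genes in the B, CD4 T and CD8 T cell gates, Control in grey and EV in red, with a separate axis from 0 for each gene. The EV points stand clear of the Control points in every gate for Stip1, Chordc1, Ahsa1, Ahsa2, Cacybp, Fkbp4 and St13, and the groups lie close or overlap for Hsf1 and Hsf2.

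The transcription factors were considered first. Hsf1 (chr15:76477422-76501913, plus strand) encodes the main factor of the heat shock response. In B cells Hsf1 was at 26.7 and 26.1 CPM in Control against 27.3 and 30.7 CPM in EV. In CD4 T cells it was at 19.6 and 22.0 CPM in Control against 19.8 and 25.9 CPM in EV, so that the groups overlapped. In CD8 T cells both EV libraries, at 27.7 and 30.4 CPM, were above both Control libraries, at 22.2 and 25.1 CPM. Its log2 fold changes were 0.14 (SE 0.099), 0.14 (SE 0.15) and 0.29 (SE 0.11) in the same order. None passed the test, with adjusted p of 0.49, 0.66 and 0.17 by edgeR's quasi-likelihood test. Without EV library 1 the CD8 T cell value became 0.36, in a fit where the EV group had no spread of its own. Hsf2 (chr10:57486385-57513135, plus strand) encodes a related factor that can pair with HSF1. Hsf2 was at 6.01 and 6.33 CPM in Control against 6.74 and 6.86 CPM in EV in B cells. Its order was the opposite in CD4 T cells, with 9.54 and 8.90 CPM in Control against 8.01 and 8.39 CPM in EV. The difference between these B and CD4 T cell effects was 0.30 on the log2 scale (SE 0.24, adjusted p = 0.78 by edgeR's quasi-likelihood test with library as a block) and did not pass. In CD8 T cells the Hsf2 groups overlapped, at 8.17 and 7.02 CPM in Control against 8.06 and 6.11 CPM in EV.

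Stip1 and St13 connect HSP70 with HSP90. Stip1 (chr19:7020702-7039967, minus strand) encodes HOP, which holds both chaperones at once so that a client can pass from one to the other. In B cells Stip1 was at 43.2 and 44.7 CPM in Control against 77.5 and 94.2 CPM in EV. CD4 T cells had values of 50.03 and 48.2 CPM in Control against 81.8 and 102.2 CPM in EV. In CD8 T cells they were 50.2 and 51.8 CPM in Control against 93.4 and 113.7 CPM in EV. The Control libraries lay close together in each gate, while EV library 2 was above EV library 1 in all 3. The log2 fold changes of 0.97 (SE 0.11), 0.91 (SE 0.12) and 1.02 (SE 0.098) had adjusted p of 0.0055, 0.0067 and 0.00045 by edgeR, and Stip1 was called in these gates under all 14 alternative settings. St13 (chr15:81363669-81400077, minus strand) encodes HIP, which binds and stabilises HSP70 in its ADP-bound state. St13 was at 108.7 and 99.0 CPM in Control against 131.6 and 159.8 CPM in EV in B cells. It was at 98.4 and 90.4 CPM against 130.5 and 149.3 CPM in CD4 T cells and at 93.5 and 78.1 CPM against 107.5 and 127.0 CPM in CD8 T cells. The groups did not overlap in any of the 3 gates. St13 was called in CD4 T cells (log2 fold change 0.57, SE 0.099, adjusted p = 0.023 by edgeR) and in CD8 T cells (0.46, SE 0.10, adjusted p = 0.045), and not in B cells (0.49, SE 0.11, adjusted p = 0.060). Its CD4 T cell call was lost without Control library 1 (adjusted p = 0.057) or Control library 2 (0.15), and its CD8 T cell call without Control library 2 (0.30), with cycling cells left out (0.064) and with a mitochondrial limit of 5% and no upper limits (0.086), by the same edgeR test. In B cells St13 was called under 7 of the 14 alternative settings. Its B cell effect differed from its CD4 T cell effect by -0.081 on the log2 scale (SE 0.086). That difference did not pass (adjusted p = 0.86 by edgeR's quasi-likelihood test with library as a block). In B cells the St13 log2 fold change ran from 0.34 to 0.62 when each library was left out in turn. Such fits leave a group without a spread of its own.

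Ahsa1 and Ahsa2 encode paralogous activators that speed up the ATPase of HSP90. Ahsa1 (chr12:87266479-87273998, plus strand) was at 46.2 and 38.8 CPM in Control against 59.9 and 59.2 CPM in EV in B cells. Ahsa1 in CD4 T cells was at 37.9 and 37.0 CPM in Control against 59.3 and 61.4 CPM in EV, and in CD8 T cells at 42.7 and 38.0 CPM and 65.1 and 66.0 CPM. The EV libraries were close together and above Control in each gate. The log2 fold changes were 0.49 (SE 0.10), 0.69 (SE 0.096) and 0.70 (SE 0.089), with adjusted p of 0.046, 0.0080 and 0.0022 by edgeR. The B cell call was lost without Control library 1 (adjusted p = 0.081 by edgeR) and without Control library 2 (0.30), with stricter gates (0.062) and with cycling cells left out (0.054). Ahsa2 (chr11:23487882-23498030, minus strand) showed a larger ratio. It was at 17.3 and 16.3 CPM in Control against 30.6 and 30.8 CPM in EV in B cells, and at 19.5 and 18.2 CPM against 30.5 and 35.9 CPM in CD4 T cells. In CD8 T cells Ahsa2 was at 15.5 and 14.6 CPM in Control against 30.07 and 30.02 CPM in EV, a ratio of the means of 2.00. The log2 fold changes of 0.87 (SE 0.096), 0.82 (SE 0.12) and 1.00 (SE 0.11) had adjusted p of 0.0055, 0.012 and 0.00067 by edgeR.

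Chordc1, Cacybp and Fkbp4 encode co-chaperones that bind HSP90 and carry further activities. Chordc1 (chr9:18292125-18317442, plus strand) encodes a CHORD-domain protein, and its window holds the run of 5 units printed above. Chordc1 was at 56.8 and 57.0 CPM in Control against 81.9 and 89.9 CPM in EV in B cells. It was at 74.3 and 78.95 CPM against 127.7 and 131.0 CPM in CD4 T cells and at 74.7 and 78.2 CPM against 121.9 and 129.1 CPM in CD8 T cells. Its log2 fold changes were 0.59 (SE 0.086), 0.75 (SE 0.088) and 0.71 (SE 0.080), with adjusted p of 0.014, 0.0053 and 0.00074 by edgeR. Cacybp (chr1:160202367-160212875, minus strand) encodes a protein that binds S100A6 and a ubiquitin ligase complex. Cacybp was at 67.4 and 74.9 CPM in Control against 103.8 and 97.5 CPM in EV in B cells, at 68.3 and 70.7 CPM against 105.2 and 111.5 CPM in CD4 T cells, and at 73.7 and 71.2 CPM against 121.0 and 118.3 CPM in CD8 T cells. Its log2 fold changes were 0.50 (SE 0.089), 0.64 (SE 0.089) and 0.72 (SE 0.078), with adjusted p of 0.028, 0.0081 and 0.00067 by edgeR. In B cells the calls of Chordc1 and Cacybp were lost without Control library 1 (adjusted p of 0.11 and 0.34 by edgeR) and without Control library 2 (0.11 and 0.12), and the Cacybp call in CD4 T cells without Control library 1 (0.058). Fkbp4 (chr6:128429735-128438677, minus strand) encodes FKBP52, a prolyl isomerase of steroid receptor complexes. Fkbp4 was at 48.7 and 51.6 CPM in Control against 85.6 and 87.3 CPM in EV in B cells. It was at 52.5 and 56.0 CPM against 85.6 and 92.4 CPM in CD4 T cells and at 63.3 and 62.6 CPM against 101.0 and 106.1 CPM in CD8 T cells. Within each group the libraries lay close together for Fkbp4, and the distance between groups was larger than the spread within them. Its log2 fold changes of 0.79 (SE 0.082), 0.71 (SE 0.094) and 0.72 (SE 0.079) had adjusted p of 0.0045, 0.0075 and 0.00072 by edgeR and were called under all 14 alternative settings.

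Bag3 was not called in any gate. Its gene (chr7:128523616-128546981, plus strand) encodes a nucleotide exchange factor of HSP70 that guides clients to autophagy, and it is a textbook heat shock gene. In CD4 T cells Bag3 was at 5.66 and 5.51 CPM in Control against 4.57 and 5.13 CPM in EV. Both EV libraries were below both Control libraries there for Bag3 and for Hsf2, as for 25.2% of all genes tested. The Bag3 log2 fold change of -0.19 (SE 0.24) did not pass (adjusted p = 0.73 by edgeR). In CD8 T cells the groups overlapped, with 3.63 and 2.38 CPM in Control against 2.46 and 2.44 CPM in EV. In B cells Bag3 had 4 and 4 UMIs in Control and 23 and 13 UMIs in EV, or 0.286 and 0.294 CPM and 0.753 and 0.496 CPM, too few to enter the test. The fit over all 16 sums, which keeps such genes, put its EV effect in B cells 1.28 above that in CD4 T cells on the log2 scale (SE 0.67, adjusted p = 0.53 by edgeR).

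**Figure D2:**
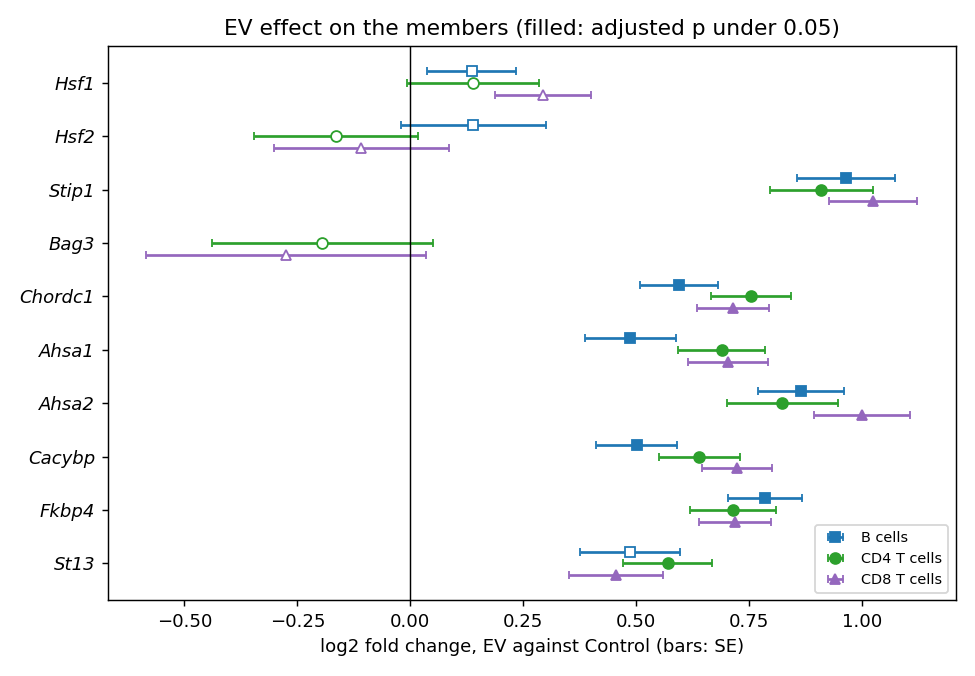
Log2 fold change of EV against Control (x axis, bars are SE) for each gene (y axis) in the B, CD4 T and CD8 T cell gates, with filled symbols for an adjusted p under 0.05. Stip1 and Ahsa2 lie farthest to the right, at 0.82 to 1.02, and Hsf1, Hsf2 and Bag3 lie nearest to 0 with open symbols.

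Because deeper cells show a UMI of any gene more often, the shares of cells with a UMI were compared after each cell was thinned to 1000 UMIs. Thinning left out at most 0.320% of the cells in a lymphocyte gate. For Stip1 in CD4 T cells, 4.48% and 4.93% of the Control cells and 8.23% and 10.3% of the EV cells then held a UMI, where the unthinned shares were 26.0% and 28.2% against 44.9% and 51.9%. For Chordc1 in CD8 T cells the thinned shares were 7.31% and 8.06% in Control and 10.8% and 12.8% in EV, against unthinned shares of 41.1% and 47.2% in Control and 64.6% and 66.3% in EV. For Fkbp4 in B cells they were 5.05% and 5.17% in Control and 8.56% and 8.20% in EV, against unthinned shares of 19.3% and 23.7% in Control and 39.1% and 39.6% in EV. The order of the groups was thus the same at equal depth in these 3 cases. For Hsf1 in B cells the thinned shares of 2.96% and 2.57% in Control and 2.49% and 2.96% in EV overlapped. These shares carry no test, and no cell type known to lack these genes was at hand to measure free RNA. On the thinned counts 6, 4 and 4 members were called in B, CD4 T and CD8 T cells. Over all alternative settings, calls over all genes ranged from 97 to 2580, 46 to 2079 and 50 to 2166 in these gates. The member counts are therefore not on the same footing as those of the main fit. The share of all genes called on the thinned counts is not given here, so the 6, 4 and 4 calls are not read as a result about the members. Ahsa1, Ahsa2 and St13 were no longer called in the T cell gates then, with log2 fold changes of 0.80, 0.73 and 0.56 in CD4 T cells and 0.51, 0.98 and 0.45 in CD8 T cells, and in B cells Ahsa1 was lost (adjusted p = 0.12 by edgeR) while St13 was called (0.017).

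The EV effects were then compared between cell types in 1 fit over the 16 sums with library as a block. Between B and CD4 T cells, and between CD8 and CD4 T cells, 0 of 10 members differed, where 1.67% and 0.114% of 14043 genes did. The same count held at an unadjusted p under 0.05 and with DESeq2. The differences between B and CD4 T cells ran from -0.20 for Ahsa1 (SE 0.11) to 0.30 for Hsf2, with Bag3 beyond them, and those between CD8 and CD4 T cells from -0.12 for St13 (SE 0.089) to 0.16 for Ahsa2 (SE 0.15). A difference of the size of these errors would not have been detectable here, so the effects cannot be called equal.

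Levels in the Control libraries were compared between cell types in the same fit. On the common scale of the 16 sums, Control B cells were below Control CD4 T cells for 6 members, against 34% of all genes called lower. Chordc1 was at 54.2 and 54.7 CPM in B cells and 77.5 and 82.9 CPM in CD4 T cells (log2 difference -0.56, SE 0.067, adjusted p = 1.2e-07 by edgeR). Bag3 was at 0.274 and 0.282 CPM in B cells and 5.90 and 5.78 CPM in CD4 T cells (log2 difference -4.35, SE 0.45, adjusted p = 1e-08 by edgeR). Hsf2, Ahsa2, Stip1 and Fkbp4 were lower in B cells as well, with log2 differences of -0.71, -0.29, -0.29 and -0.24. The median of all genes in this contrast was -0.096, and with DESeq2 size factors it was -0.039. With those size factors 5 members were called lower and 1 higher, and the share of all genes called in that fit is not given here. When either Control library was left out, fewer members were called lower, so the number of calls depends on single libraries. Between Control CD8 and CD4 T cells, Fkbp4 was higher in CD8 T cells (68.7 and 68.7 CPM against 54.7 and 58.8 CPM, log2 difference 0.27, SE 0.065, adjusted p = 0.0032 by edgeR), where 10% of all genes were called higher. Bag3 was lower in CD8 T cells (3.94 and 2.61 CPM against 5.90 and 5.78 CPM, log2 difference -0.86, SE 0.30, adjusted p = 0.043 by edgeR), where 10.9% of all genes were called lower. Without Control library 1 neither of these was called, and without Control library 2 there was 1 call. The difference between CD8 and CD4 T cells did not pass the test for the remaining members.

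**Figure D3:**
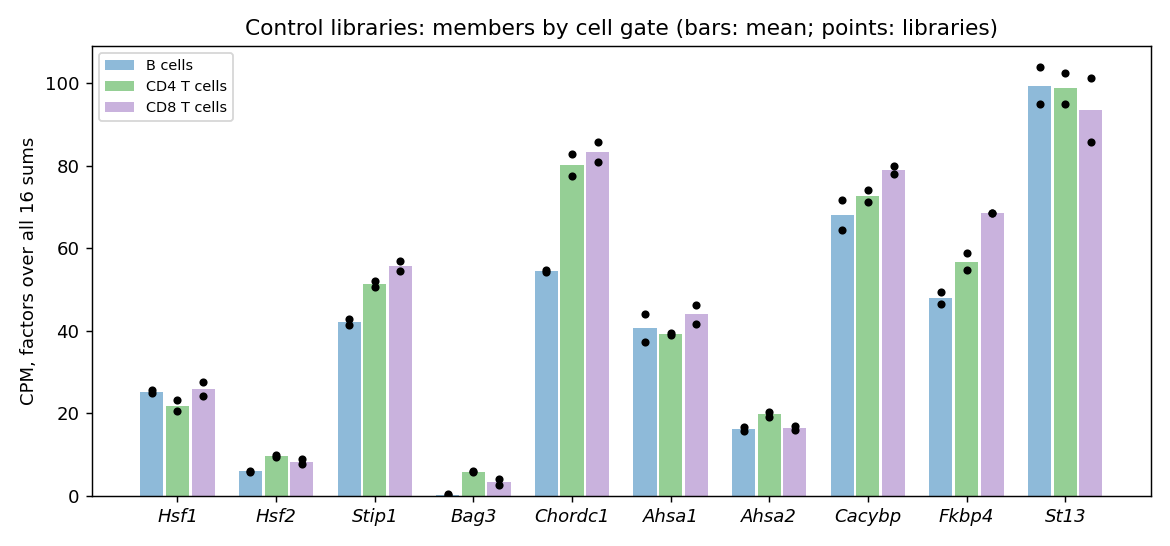
CPM in the 2 Control libraries (points) and their mean (bars from 0) for each gene in the B, CD4 T and CD8 T cell gates, scaled over all 16 sums. Chordc1 stands lower in B cells than in T cells, Fkbp4 stands higher in CD4 T than in B cells and higher again in CD8 T cells, and Bag3 is near 0 in B cells.

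Macrophages gave few counts, 70039 and 176991 UMIs in Control from 42 and 80 cells and 269393 and 211354 UMIs in EV from 91 and 67 cells. Of the 10 genes, 5 had enough counts to be tested, and 0 were called, as were 0% of the 3497 genes tested in the higher direction. By DESeq2 it was also 0 members, and 0 had an unadjusted p under 0.05. Stip1 had 1 and 10 UMIs in Control and 15 and 19 UMIs in EV, and Cacybp had 10 and 12 UMIs in Control and 32 and 39 UMIs in EV, and in CPM the groups overlapped for both. Fkbp4 was the only tested member whose groups did not overlap, and it was lower in EV, at 89.5 and 70.7 CPM in Control against 43.4 and 58.1 CPM in EV (log2 fold change -0.61, SE 0.51, adjusted p = 0.79 by edgeR), as 19.9% of all genes were. The difference from its CD4 T cell effect was -1.14 (SE 0.43) with an unadjusted p of 0.014 and an adjusted p of 0.50 by edgeR. Ahsa1 had 1 and 2 UMIs in Control and 22 and 10 UMIs in EV, and was higher in both EV libraries, as 21.3% of the genes tested were, but had too few counts to be tested in this gate. Hsf1 had 0 UMIs among the 247030 UMIs of both Control libraries and 6 and 4 UMIs in EV. A count of 0 allows up to 3 counts over the Control group, which is 12.1 CPM, and the 10 UMIs of both EV libraries are 20.8 CPM with an exact 95% Poisson interval of 9.97 to 38.3 CPM. The interval, which covers counting error only, includes that limit. Such an overlap is not a test, and Hsf1 had too few counts to be tested in this gate. In the 16-sum fit 0 of 10 members differed in EV effect between macrophages and CD4 T cells (0.107% of all genes did), 3 had an unadjusted p under 0.05 (Fkbp4, Ahsa1 and Hsf1), and DESeq2 called 0. The median of all genes in this contrast was 0.18. In Control level, Hsf1 was called lower in macrophages than in CD4 T cells (adjusted p = 0.012 by edgeR), where 11.2% of all genes were, with the median of all genes at -0.57, and at 0.018 by DESeq2, which also made this 1 call. The estimate behind it, -10.9 on the log2 scale (SE 6.96), comes from the 0 UMIs above and has no usable size. Hsf1 entered the 16-sum fit through its counts in the lymphocyte sums. Its level in Control macrophages therefore cannot be judged from this call. Without Control library 2 this call was lost, and without either EV library a second member was called lower.

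Smaller sets of cells were then examined, by CPM of their summed UMIs without TMM scaling and with no test. Within the CD4 T cell gate, cells with a UMI of Foxp3, the lineage factor of regulatory T cells, numbered 54 to 95 per library. Stip1 was at 44.7 and 39.9 CPM in Control against 88.0 and 72.6 CPM in EV in the Foxp3-positive cells. Fkbp4 was at 37.9 and 24.8 CPM in Control against 66.0 and 85.9 CPM in EV there. In the Foxp3-positive cells 7 of 10 members had both EV libraries above both Control libraries, as had 16.6% of all genes with at least 10 UMIs there. In the Foxp3-negative cells it was 7 of 10, against 20.4% of all genes. Hsf2 was lower in EV in them, as were 27.5% of all genes. In the Foxp3-positive cells Hsf2 was higher in EV, with 6 and 4 UMIs in Control and 7 and 6 UMIs in EV. Cells with a UMI of a cell cycle gene (Mki67, Top2a, Cdk1, Ccnb1, Ccnb2, Birc5 or Ube2c) were counted apart in the B cell gate and in both T cell gates together. In the T cell gates, Stip1 was at 51.8 and 43.1 CPM against 84.3 and 87.7 CPM in cycling cells and at 50.6 and 50.8 CPM against 86.8 and 111.4 CPM in the others. In the B cell gate, Cacybp was at 75.4 and 111.6 CPM in Control against 143.4 and 131.8 CPM in EV in cycling cells, and at 68.3 and 73.2 CPM against 98.7 and 93.8 CPM in the others. Counting members with at least 10 UMIs, EV was higher without overlap for 8 of 10 members in cycling T cells (16.4% of all genes) and 7 of 10 in the other T cells (20.1%), and for 7 of 9 in cycling B cells (17% of all genes) and 9 of 10 in the other B cells (17.9%). EV was lower without overlap for Hsf2 and Bag3 in cycling T cells (24.2% of all genes) and for Hsf2 in cycling B cells (20.7%). In cycling T cells Bag3 had 8 and 11 UMIs in Control and 4 and 8 UMIs in EV. A cell without a UMI of these 7 genes may still have been cycling.

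Outside the B and T cell gates, cells with Siglech, a marker of plasmacytoid dendritic cells, and without Cd3e and Cd79a numbered 29 to 60 per library. In these, 7 of the 9 members with at least 10 UMIs were higher in both EV libraries, against 19.4% of all genes, among them Stip1 at 25.8 and 57.4 CPM in Control against 108.6 and 117.6 CPM in EV. Cacybp was at 33.1 and 55.3 CPM in Control against 111.8 and 106.9 CPM in EV in the Siglech-positive cells. Cells with Ncr1, a receptor of natural killer cells, numbered 15 to 44 per library, and 3 of the 9 members with at least 10 UMIs were higher in both EV libraries, against 17.5% of all genes. For Ahsa2 the Ncr1-positive cells had 19.9 and 21.6 CPM in Control against 52.3 and 62.4 CPM in EV. Fkbp4 overlapped in them, at 39.9 and 43.2 CPM in Control against 52.3 and 42.9 CPM in EV.

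**Figure D4:**
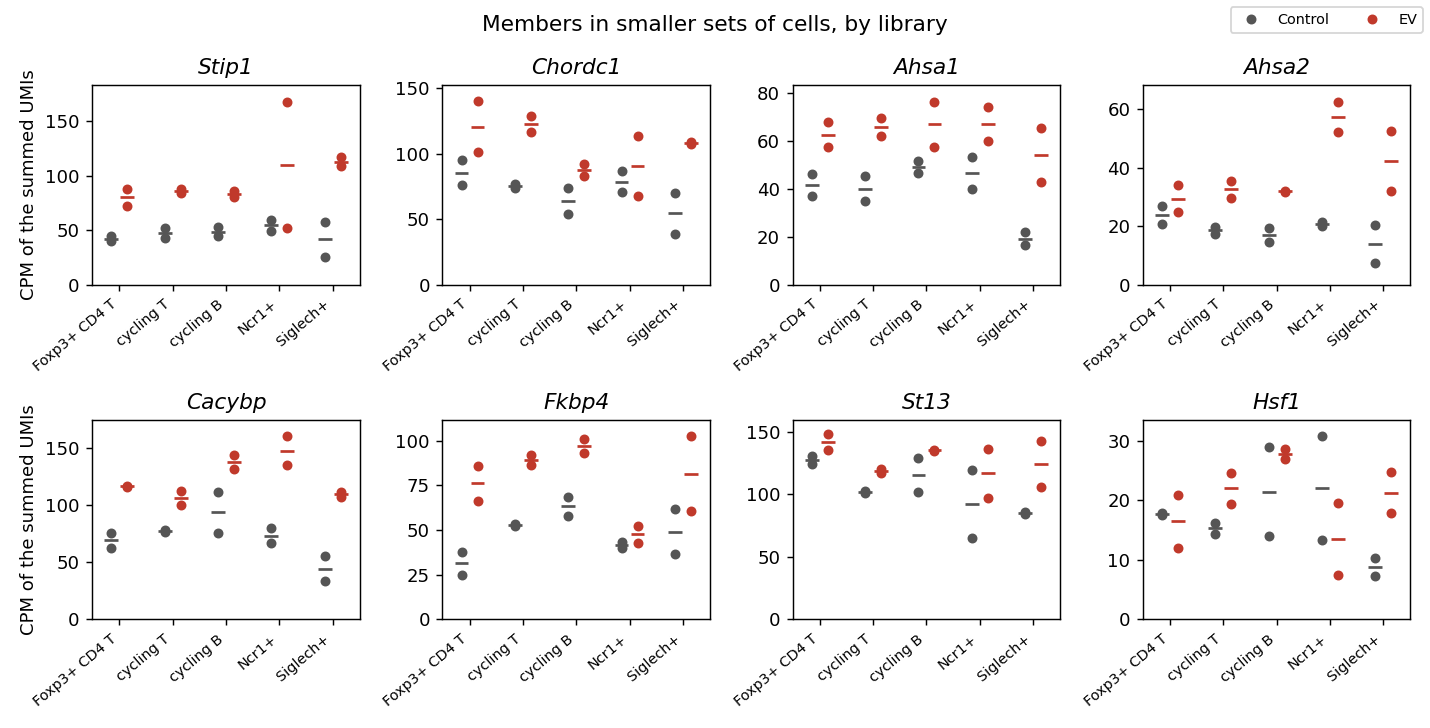
CPM of the summed UMIs per library (points) and group mean (line) for 8 of the 10 genes in 5 smaller sets of cells, Control in grey and EV in red, with an axis from 0 for each gene. Cacybp and Ahsa1 stand higher in both EV libraries in all 5 sets, whereas Hsf1 overlaps in 3 of the 5 sets and 5 of these 8 genes overlap in Ncr1-positive cells.

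Related gene lists place these values. Of 17 other HSP90 co-chaperones, all were tested in lymphocytes. Called higher were 2 in B cells, 0 in CD4 T cells and 1 in CD8 T cells, and none was called lower, with median log2 fold changes of 0.07, 0.09 and 0.08. They were Fkbp5, a glucocorticoid-induced immunophilin (33.6 and 36.1 CPM in Control against 52.7 and 60.3 CPM in EV B cells, log2 fold change 0.70), and Ptges3, which encodes the p23 subunit that closes HSP90 (log2 fold change 0.43 in B and 0.41 in CD8 T cells). The list of HSP70 exchange factors and J-proteins, which regulate HSP70, also held Hspa8, the constitutive HSP70 itself. Of this list, 4 of 15 were called higher in B cells, 3 of 14 in CD4 T cells and 4 of 15 in CD8 T cells. Those with the largest changes were Hsph1, an HSP110 exchange factor, and Hspa8. Hsph1 was at 22.2 and 23.8 CPM in Control against 54.8 and 63.3 CPM in EV CD4 T cells, and its log2 fold changes were 1.36, 1.36 and 1.26 in B, CD4 T and CD8 T cells. Those of Hspa8 were 1.22, 0.95 and 0.85. Of the heat shock response genes, a list that shares these genes, 8 of 14, 6 of 13 and 8 of 14 were called higher. Their median log2 fold changes were 0.63, 0.58 and 0.63. Of all genes tested, 1.57%, 0.788% and 1.34% were called higher in B, CD4 T and CD8 T cells. Named after its values were seen, the strongly inducible HSP70 gene Hspa1b stayed short of the threshold. In CD4 T cells it was at 0.444 and 1.61 CPM in Control against 2.16 and 19.3 CPM in EV (adjusted p = 0.085 by edgeR), so that EV library 2 alone was high.

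Among other HSF family members and HSF1 regulators, 0 of 7, 0 of 6 and 1 of 7 were called in B, CD4 T and CD8 T cells. The single gene was Hikeshi, which carries HSP70 into the nucleus, at 33.7 and 33.5 CPM in Control against 44.6 and 46.4 CPM in EV CD8 T cells (log2 fold change 0.44, adjusted p = 0.025 by edgeR). Genes of the early response to tissue dissociation were called lower in 1 of 13 cases in B cells, 0 of 12 in CD4 T cells and 1 of 13 in CD8 T cells, and none was called higher. The gene was Egr1 both times, with log2 fold changes of -0.78 and -0.63. The cold-inducible genes Cirbp and Rbm3 moved with EV as well. Cirbp was called lower in all 3 lymphocyte gates (log2 fold changes of -0.995, -1.16 and -1.05) and Rbm3 in CD8 T cells (-0.55). Cirbp in CD4 T cells was at 104 and 96.7 CPM in Control against 54.4 and 36.0 CPM in EV. Their part in the co-chaperone values was not tested. The share of all genes called lower in EV in these gates is not given here. In macrophages 0 genes of any of these lists were called by edgeR.

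**Figure D5:**
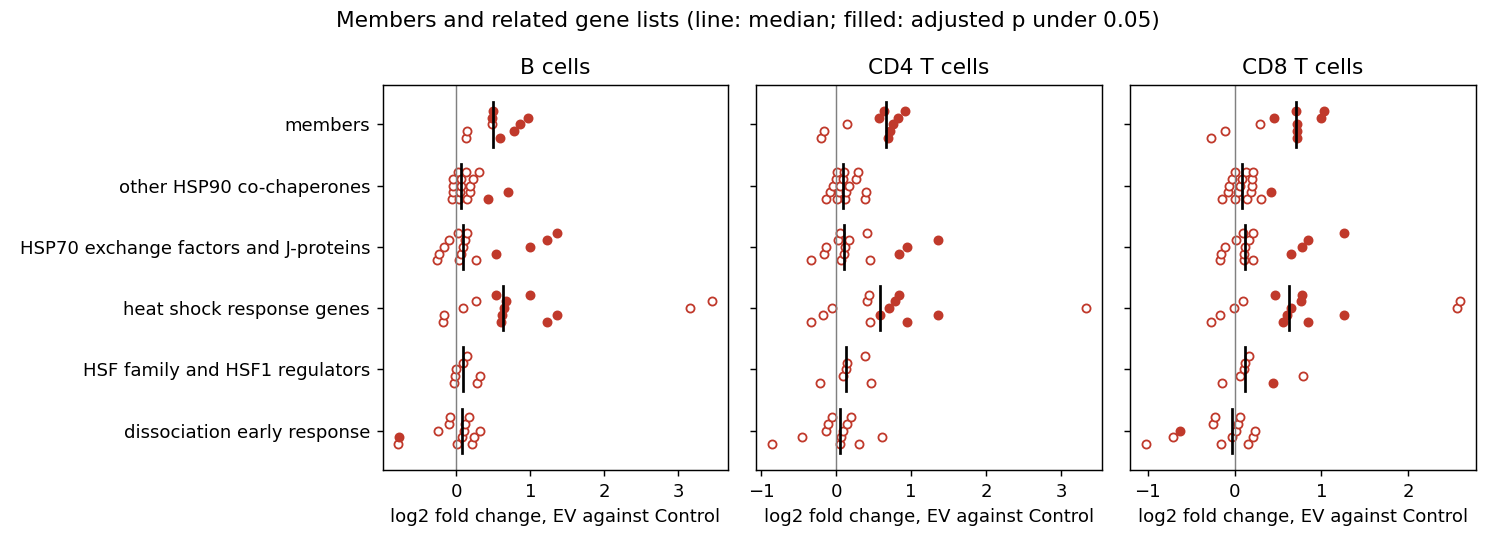
Log2 fold change of EV against Control (x axis) for each tested gene (points) of the members and of 5 related lists (rows) in the B, CD4 T and CD8 T cell gates, with filled points for an adjusted p under 0.05 and a line at the list's median. The median of the members lies at 0.50 to 0.71 and that of the heat shock response genes at 0.58 to 0.63, while that of the other HSP90 co-chaperones lies at 0.07 to 0.09.

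The likeness of each gene to all genes outside the 10 members was described by Pearson's r of the log2 CPM over sums. The mean of each gate was taken out, while the difference between EV and Control was left in. Genes that shift alike between the groups are therefore alike by this measure. Each closest gene is also the highest of all genes in the 16-sum fit outside the members. A member could be closer to another member, as Ahsa2 was to Chordc1 (r = 0.955 over all 16 sums). Over all 16 sums, Cacybp was most like Hsph1 (r = 0.977) and Chordc1 most like Cct3 (r = 0.977), a subunit of the cytosolic chaperonin. Stip1 was most like Fkbp1a (r = 0.957), Ahsa2 most like Cct3 (r = 0.942) and Fkbp4 most like Mlxip (r = 0.950). Higher values were those of Hsf1 with Gm20732 (r = 0.999), Bag3 with Mast3 (r = 0.995) and Ahsa1 with Sptlc2 (r = 0.987). Hsf2 reached 0.969 with 2610008E11Rik and St13 0.934 with Rph3al. The macrophage sums hold few UMIs, and without them the closest gene changed for all 10 members. Over the 12 lymphocyte sums, a choice made after seeing the data, Fkbp4 was most like Dnaja1, a J-protein (r = 0.998), Cacybp most like Hsp90aa1, the inducible HSP90 (r = 0.988), Ahsa2 most like the chaperonin subunit Cct8 (r = 0.989), and Chordc1 most like Ube2d3 (r = 0.997) and next Hsph1 (r = 0.988). Stip1 was most like Suds3 (r = 0.993), Ahsa1 most like Rrp1 (r = 0.975), St13 most like L3mbtl3 (r = 0.977) and Hsf1 most like Fam193b (r = 0.967), whereas Hsf2 and Bag3 reached 0.914 with Otub2 and 0.896 with Slc35d2. The sums come in sets of 4 from the same libraries, so these values describe the 4 libraries and carry no test.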

How the data were processed

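The authors aligned reads to mm10 and made UMI counts with Cell Ranger 7.1.0, per the labels, and deposited whole-number counts per gene and barcode without normalization. The annotation release and intron handling are not given in the sources used here. Cells were filtered and gated as described above. The study's limit of 60% ribosomal UMIs was an alternative. No doublet caller was run, and stricter gates that drop cells with markers of a second type were an alternative. Counts were summed per library and gate (Python 3.11.15) and tested two-sided with edgeR 4.0.16 in R 4.3.3, after filterByExpr, with TMM factors per gate. Effects and levels between gates came from 1 fit over 16 sums with library as a block. The study compared cells by a Wilcoxon test, which was not used because cells of a library are not replicates. Alternatives were DESeq2 1.42.0, its size factors in edgeR, library sizes without ribosomal, mitochondrial, heat shock and member genes, no filterByExpr, a replicate block, thinning to 1000 UMIs (seed 1), other cell filters, cycling cells left out, and each library left out. The alternative library sizes also left out Gm42418, AY036118, Cmss1, Cdk8, Lars2 and Camk1d. The scripts were tested on simulated counts. An exact permutation test of 2 libraries against 2 cannot go below p = 0.33, so none is given. The 10 genes, the lists and the tests were chosen with earlier results of these data known. All 10 genes are named, and of each list the 2 called genes with the largest absolute change per gate. Other genes were named after their values were seen. One of the markers chosen for the check of the gates is not reported here and was left out of the marker sums. Promoters are from RefSeq (GRCm38.p6) and gene positions from GENCODE M21 (GRCm38), the assembly of mm10.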

Additional observations from a re-analysis of the deposited data

Results flagged for a closer look

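In cells that entered no test, some of the members were higher in both EV libraries than in both Control libraries. These cells come from the same 4 libraries as the gated cells, so they are not independent of the results above. Those in no gate can include the Siglech- and Ncr1-positive cells described above. In the 1301 to 2023 kept cells per library that fell in no gate, the ratio of the mean CPM of EV to that of Control was 1.98 for Stip1, 1.90 for Ahsa2, 1.67 for Fkbp4, 1.66 for Chordc1, 1.53 for Cacybp, 1.44 for Ahsa1, 1.44 for St13 and 1.09 for Hsf1. Stip1, for example, stood at 49.3 and 48.9 CPM in Control against 84.4 and 110.3 CPM in EV there. In the barcodes that failed the filters, the ratio was 1.87 for Ahsa2, 1.73 for Cacybp, 1.69 for Fkbp4, 1.63 for Stip1, 1.58 for Ahsa1, 1.52 for Chordc1 and 1.23 for St13. These are 8 of 10 members, against 23.6% of all genes with at least 10 UMIs, in the cells without a gate, where Hsf2 and Bag3 overlapped, and 7 of 10, against 23.6%, in the barcodes that failed the filters, where Hsf1, Hsf2 and Bag3 overlapped. These values were not tested, and the mix of cell types behind them differs between libraries.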

How the results depend on the processing

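Leaving out each library in turn gave 3 to 7 called members in B cells (6 with all), 5 to 7 in CD4 T cells and 6 to 8 in CD8 T cells (7 with all), with the lone library of a group assumed to vary like the other group. The low counts came without Control library 1 (3, 5 and 7 in that order) and without Control library 2 (3, 6 and 6). Thinning to 1000 UMIs gave 4 in CD4 T and 4 in CD8 T cells. For the Control levels against CD4 T cells, leaving out a library gave 2 to 7 called members in B cells, 0 to 2 in CD8 T cells and 0 to 2 in macrophages. Thinning gave 3 in B cells and 0 in CD8 T cells, and DESeq2 and the filter without upper limits gave 1 each in CD8 T cells. Calls over all genes varied with these settings as well, and the cause was not tested. Their ranges for EV against Control are given below. For the Control levels, the 13 alternatives called 4274 to 8190 genes in B cells. They called 1016 to 3140 genes in CD8 T cells and 1258 to 3353 in macrophages, where the main fit tested 14043. The share of all genes under each single setting is not given here, so these member counts are not read as a result about the members. Some changes near 0 changed sign. Thinning turned Hsf1 in B cells to -0.012 and Hsf2 in CD8 T cells to 0.35 on the log2 scale, and leaving out a library gave ranges of -0.074 to 0.32 for Hsf1 in CD4 T cells, -0.30 to 0.093 for Hsf2 and -0.56 to 0.042 for Bag3 in CD8 T cells, and -0.054 to 1.00 for Cacybp and -0.088 to 0.80 for St13 in macrophages. Of the values of single members under the other 10 alternatives, 310 kept direction and side of the threshold, 11 lost a call, 5 gained one and 2 reversed.

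Same-numbered libraries deviated together with r of 0.020, 0.061 and 0.084 in B, CD4 T and CD8 T cells, and the labels do not pair them. With the replicate block 7, 7, 7 and 0 members were called in B, CD4 T and CD8 T cells and macrophages, and the calls over all genes rose from 338, 130, 270 and 1 to 1182, 788, 1018 and 57. For EV against Control, calls over all genes ranged from 97 to 2580, 46 to 2079, 50 to 2166 and 0 to 87 over all alternatives. Of these, EV library 1 left out gave the highest counts in lymphocytes and thinning or Control library 1 left out the lowest. In macrophages 0 members could be tested after thinning.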
